A study of Homo sapiens with 11 samples.

Results

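The genes described here are 36 genes of the hypoxia response and of glycolysis, listed by symbol, of which 35 were measured. A gene's value was the mean over the Affymetrix probe sets annotated to its symbol alone, and 19775 genes were measured in this way in all. The 35 genes rested on 76 probe sets, with 1 probe set for 11 genes and up to 6 for PGK1. CA9, the carbonic anhydrase of the cell surface, had no probe set with its symbol alone in the annotation used and was not analysed here.

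MDA-MB-231 is an established breast cancer line without estrogen receptor alpha, and its RNA was measured on 11 HG-U133 Plus 2.0 arrays. All cells, the controls included, were kept in charcoal-stripped serum for 4 h before treatment and were collected 3 h later. E2-BSA, which is estradiol coupled to bovine serum albumin, was given at 1 µM and had 2 arrays. Estradiol at 1 µM, the vehicle ethanol at 0.1%, the carrier BSA at 1 µM, ICI at 10 µM and G15 at 10 µM had 1 array each, as had both antagonists in combination with E2-BSA at the doses of the single agents. G15 is an antagonist of the membrane estrogen receptor GPER, and ICI is an antagonist that the labels name only so. The untreated control had 2 arrays, of cells left for 3 h after a change of medium. No label ties the duplicate arrays to separate cultures, and the p-values below therefore cover the spread among arrays, which may be technical.

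Cells that run short of oxygen stop hydroxylating the alpha subunits of the hypoxia-inducible factors (HIFs), which then escape degradation through VHL and bind DNA at a short core motif. Their targets include the glucose transporters and most enzymes of glycolysis, the kinase that inhibits pyruvate dehydrogenase, the angiogenic factor VEGFA and the prolyl hydroxylases that feed back on HIF itself. Several of these genes also answer to other signals, and DDIT4, an inhibitor of the growth kinase complex mTORC1, is known to respond to glucocorticoids and to endoplasmic reticulum and amino acid stress as well.

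The core of the HIF site reads ACGTG or GCGTG, and the promoters below are shown to set that core beside the genes that passed a test or differed most between the array sets. Each is the 250 bases before a gene's annotated start, from RefSeq on GRCh38.p14, 5′ to 3′ on the gene's own strand. Capitals mark ACGTG and GCGTG on either strand, and with them CACGTG, so that CACGT and CACGC are the cores read on the other strand. VEGFA, NDRG1, BNIP3L and SLC2A3 are named without a sequence. The windows lie at chr10:72273674-72273923 (plus strand) for DDIT4, chr4:185396591-185396840 (plus) for ANKRD37, chr10:6144671-6144920 and chr10:6202682-6202931 (both plus) for the first and the other PFKFB3 start, chrX:78103998-78104247 (plus) for PGK1, chr1:42958869-42959118 (minus) for SLC2A1 and chr10:131981924-131982173 (minus) for BNIP3.
DDIT4: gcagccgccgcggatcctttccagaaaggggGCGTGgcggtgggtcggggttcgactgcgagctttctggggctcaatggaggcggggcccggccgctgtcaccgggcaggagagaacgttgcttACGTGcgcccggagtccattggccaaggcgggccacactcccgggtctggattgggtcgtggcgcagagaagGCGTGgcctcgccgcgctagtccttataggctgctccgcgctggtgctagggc
ANKRD37: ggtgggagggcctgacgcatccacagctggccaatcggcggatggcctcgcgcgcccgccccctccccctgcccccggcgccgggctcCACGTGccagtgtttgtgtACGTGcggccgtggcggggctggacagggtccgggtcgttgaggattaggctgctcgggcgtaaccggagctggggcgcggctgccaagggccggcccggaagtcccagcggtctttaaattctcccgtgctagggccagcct
PFKFB3, first start: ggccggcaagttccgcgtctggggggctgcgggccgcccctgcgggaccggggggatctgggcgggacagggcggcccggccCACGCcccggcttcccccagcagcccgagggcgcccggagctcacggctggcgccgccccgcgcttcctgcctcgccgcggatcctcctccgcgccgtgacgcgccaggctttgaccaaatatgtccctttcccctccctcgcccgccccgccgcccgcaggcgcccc
PFKFB3, other start: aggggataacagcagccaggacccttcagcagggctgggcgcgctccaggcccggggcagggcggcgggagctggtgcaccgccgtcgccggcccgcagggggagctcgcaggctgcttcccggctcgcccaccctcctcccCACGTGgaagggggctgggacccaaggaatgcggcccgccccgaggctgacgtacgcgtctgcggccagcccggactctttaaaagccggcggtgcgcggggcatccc
PGK1: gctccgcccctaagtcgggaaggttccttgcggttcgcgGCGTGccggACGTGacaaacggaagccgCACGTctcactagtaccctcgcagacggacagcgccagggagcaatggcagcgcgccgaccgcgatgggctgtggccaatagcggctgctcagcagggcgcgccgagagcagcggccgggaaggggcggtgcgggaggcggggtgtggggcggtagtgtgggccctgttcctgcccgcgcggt
SLC2A1: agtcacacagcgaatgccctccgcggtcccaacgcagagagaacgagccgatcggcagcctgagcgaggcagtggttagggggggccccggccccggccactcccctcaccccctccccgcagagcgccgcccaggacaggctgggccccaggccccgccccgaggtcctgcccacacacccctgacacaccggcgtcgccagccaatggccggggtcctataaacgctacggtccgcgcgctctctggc
BNIP3: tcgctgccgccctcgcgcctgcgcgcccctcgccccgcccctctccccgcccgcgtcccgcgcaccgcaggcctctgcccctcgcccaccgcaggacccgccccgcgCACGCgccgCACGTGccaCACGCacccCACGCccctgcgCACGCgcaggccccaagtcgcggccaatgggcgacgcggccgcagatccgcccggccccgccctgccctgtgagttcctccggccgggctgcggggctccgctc
The DDIT4 window held 3 cores, ACGTG once and GCGTG in 2 places. The ANKRD37 window held 3 ACGTG matches counted over both strands, of which 2 come from 1 CACGTG, read once on each strand. The BNIP3 window held 6 matches and the SLC2A1 window 0. Over the 31 listed genes with a window in the table, 27 (87.1%) held ACGTG or GCGTG in at least 1 window, against 47.4% of the 27305 genes of the table. ACGTG itself was in 21 of 31 (67.7%, against 21.7% of all), GCGTG in 18 (58.1%, against 36.2%) and CACGTG, which overlaps ACGTG, in 8 (25.8%, against 7.73%). A gene with several starts had several chances of a match, and counted by window the share was 37 of 52 (71.2%) against 43.2% of 35116 windows. These are letter matches and not measured binding.

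The deposited log values, with the base taken as 2, were centred per probe set, so they give differences between arrays and no level of a gene. For the same reason, whether the defining markers of MDA-MB-231 cells were expressed could not be checked. The poly-A spike-in transcripts, added to the RNA before labelling, parted the arrays into 3 high ones, E2-BSA (first), estradiol and control (first), at 1.40 to 1.62, and 8 low ones at -0.56 to 0.10. The low ones are ethanol, BSA, both antagonists, both combinations, E2-BSA (2) and control (2). Between the probe sets for the 5′ and 3′ ends of ACTB, a sign of RNA quality, the difference was 0.15 to 0.31 in the high arrays and -0.35 (BSA) to 0.17 in the low arrays, with ethanol at -0.10. The 18S rRNA control probe sets stood at -1.65 in the E2-BSA with G15 array and between -0.28 and 0.35 in the others. Comparisons between treatments were therefore made within a set of arrays or with a term for the set.

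**Figure D1:**
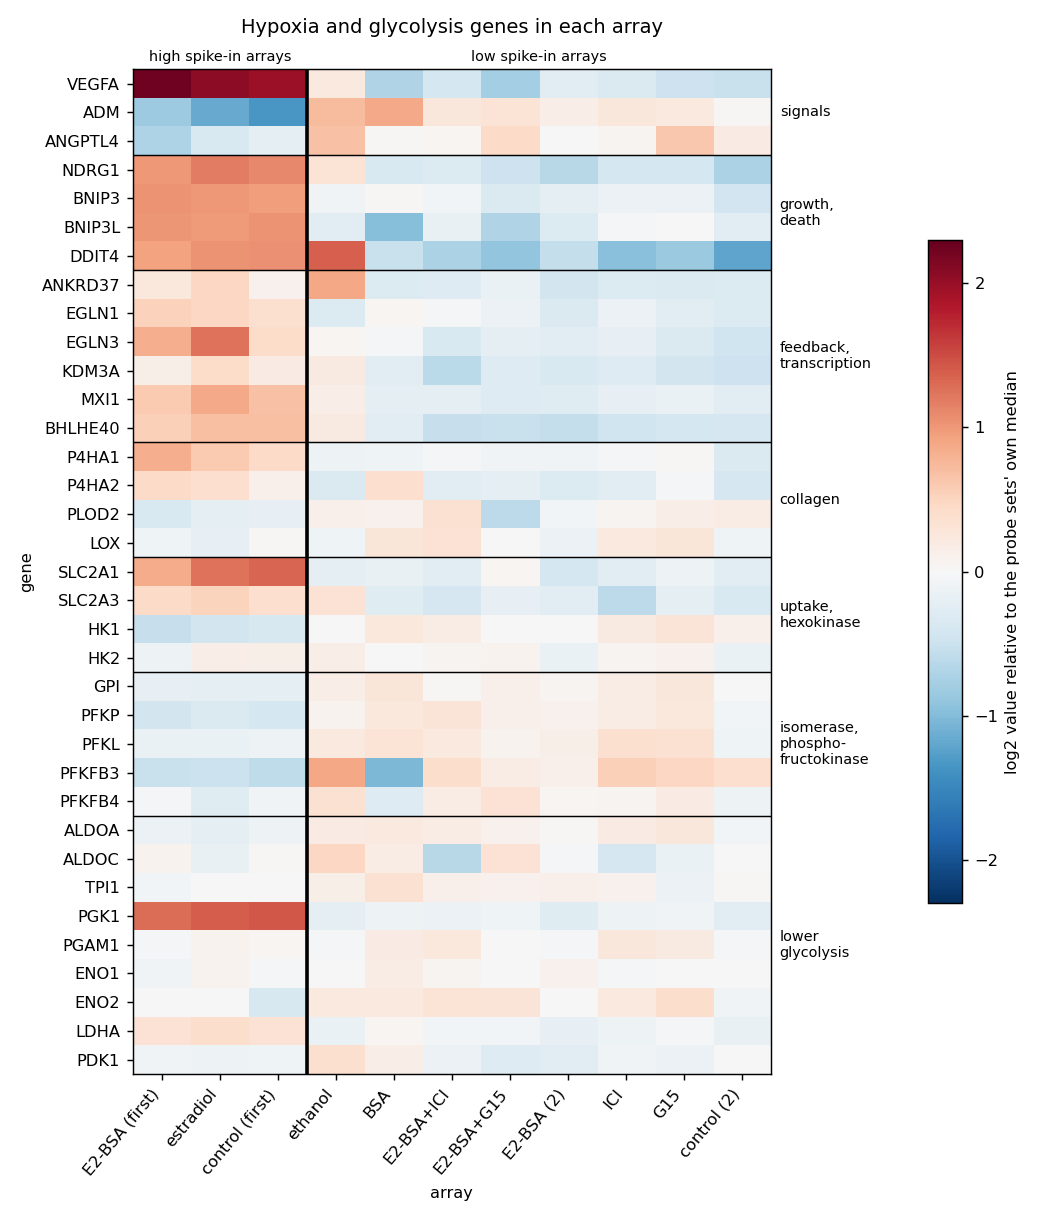
Value of each of the 35 genes (rows, grouped by role) in each of the 11 arrays (columns), as a log2 value centred per probe set, from blue (lower) to red (higher). The 3 high spike-in arrays stand left of the thick line and the 8 low ones right of it; VEGFA, the growth and death genes and PGK1 are red in the high arrays, and DDIT4 and ANKRD37 are also red in the ethanol array.

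Many of these genes differed between the 2 sets of arrays, also between arrays of the same label. The set difference below is the mean of the first control array minus control (2) and the first E2-BSA array minus E2-BSA (2), so treatment is balanced in it. It exceeded 1 on the log2 scale, a doubling, in 8 of the 35 genes (2.94% of all genes), which were VEGFA, DDIT4, NDRG1, PGK1, SLC2A1, BNIP3, BNIP3L and BHLHE40. It lay below -1 in 1 gene, ADM (1.67% of all genes). The median over the 35 genes was 0.17, against 0.07 over all genes. In the high arrays 22 genes were higher and 13 lower, and of all genes 60.3% were higher. In 13 genes all 3 high arrays stood above all 8 low arrays, against 13.5% of all genes, and in 7 genes they all stood below, against 16.3% of all genes. The 13 were VEGFA, NDRG1, BNIP3, BNIP3L, EGLN1, EGLN3, MXI1, BHLHE40, P4HA1, SLC2A1, SLC2A3, PGK1 and LDHA, and the 7 were ADM, ANGPTL4, HK1, GPI, PFKP, PFKL and ALDOA. The 3 probe sets of ALDOA had set differences of -0.398, 0.005 and 0.052. For PFKL the gap was narrow, with the highest high array at -0.115 and the lowest low array at -0.098. The sets are known only by their spike-in level, and which other handling differed between them cannot be told apart. Fewer cells of a kind and less RNA per cell cannot be told apart either in such bulk RNA.

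Among the secreted signals, VEGFA, which drives the growth of blood vessels, had the largest set difference of the 35. VEGFA stood at 2.23 with E2-BSA (first array), 2.05 with estradiol and 1.98 in the first control array. The 8 low arrays ran from -0.78 to 0.23 with a median of -0.44. The groups did not overlap, the set difference was 2.48 (5.59-fold), and ethanol was the highest of the low arrays. ADM, the gene of the vasodilator peptide adrenomedullin, went the other way. ADM stood at -0.84 with E2-BSA (first array), -1.16 with estradiol and -1.34 in the first control array, and between 0.03 and 0.88 (median 0.26) in the low arrays, a set difference of -1.19 on 1 probe set. ANGPTL4, an inhibitor of lipoprotein lipase, was lower as well, at -0.71, -0.35 and -0.22 in those high arrays and between 0.01 and 0.67 (median 0.12) in the low arrays. Its set difference was -0.56. The high arrays thus parted 3 secreted HIF targets, with VEGFA above and ADM and ANGPTL4 below every low array.

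The 4 genes of growth control and cell death were higher in the high arrays by similar amounts, with a median set difference of 1.54. NDRG1, a stress-responsive growth regulator, stood at 0.99 with E2-BSA (first array), 1.18 with estradiol and 1.11 in the first control array, and between -0.73 and 0.32 (median -0.40) in the low arrays. Its set difference was 1.74. BNIP3 and BNIP3L, mitochondrial receptors for mitophagy, differed by 1.33 and 1.32. BNIP3L stood at 1.01, 0.97 and 1.04 in the first E2-BSA, estradiol and first control arrays, and between -0.98 (BSA) and 0.00 (G15) in the low arrays, with a median of -0.25. DDIT4 differed by 1.88 and was the exception to the separation: its high arrays, at 0.93 to 1.06, lay above 7 low arrays, at -1.21 to -0.52, but below ethanol at 1.37.

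All 6 genes of oxygen-sensing feedback and transcription were higher in the high arrays, against 60.3% of all genes, with a median set difference of 0.84. EGLN3 and EGLN1, prolyl hydroxylases that mark HIF for degradation, differed by 0.99 and 0.77. BHLHE40, a repressor linked to the circadian clock, differed by 1.09 and MXI1, an antagonist of MYC, by 0.90. MXI1 stood at 0.60 with E2-BSA (first array), 0.88 with estradiol and 0.68 in the first control array, and between -0.29 and 0.16 (median -0.22) in the low arrays. KDM3A, a histone demethylase, stood at 0.14, 0.42 and 0.19 in those high arrays and between -0.63 and 0.20 (median -0.33) in the low ones, where ethanol was the highest and overlapped. ANKRD37, an ankyrin-repeat protein, overlapped through the ethanol array too, at 0.89 against 0.09 to 0.47 in the high arrays.

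The genes of collagen modification were mixed. P4HA1 and P4HA2, subunits of the collagen prolyl hydroxylase, were higher by 0.84 and 0.63. P4HA2 stood at 0.43, 0.39 and 0.12 in the first E2-BSA, estradiol and first control arrays and between -0.39 and 0.39 (median -0.25) in the low arrays, where the BSA array was the highest. PLOD2, a lysyl hydroxylase, was at -0.34, -0.23 and -0.19 in the same high arrays and between -0.60 (E2-BSA with G15) and 0.36 (E2-BSA with ICI) in the low ones, with a median of 0.10 and overlap. LOX, the collagen cross-linking lysyl oxidase, was at -0.10, -0.19 and 0.03 in those high arrays and between -0.14 and 0.34 (median 0.11) in the low ones. Their set differences were -0.32 for PLOD2 and 0.09 for LOX.

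Within glycolysis, on means over probe sets, the set difference was largest at a few steps and did not run along the pathway. The glucose transporter SLC2A1 (GLUT1) differed by 1.43 and SLC2A3 (GLUT3) by 0.72. Of the hexokinases, which trap glucose in the cell, HK2 differed by 0.17 and HK1 by -0.51. The 3 HK2 probe sets ran from -0.34 to 0.72. HK1 stood at -0.53 with E2-BSA (first array), -0.43 with estradiol and -0.37 in the first control array, below all low arrays at 0.00 to 0.29 (median 0.15). Next come the isomerase GPI and the phosphofructokinase step, the committed step of the pathway. Here 0 of these 5 genes were higher, against 60.3% of all genes. GPI differed by -0.22, and the phosphofructokinase subunits PFKP and PFKL by -0.43 and -0.15, with all 3 high arrays below the 8 low ones. PFKFB3 and PFKFB4, which make and remove the activator fructose 2,6-bisphosphate, differed by -0.80 and -0.01. PFKFB4 stood at -0.02, -0.27 and -0.09 in the first E2-BSA, estradiol and first control arrays and between -0.30 and 0.35 (median 0.12) in the low arrays, so the groups overlapped.

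In lower glycolysis PGK1 and LDHA stood apart from the other 7 genes. PGK1, phosphoglycerate kinase, was at 1.28 with E2-BSA (first array), 1.39 with estradiol and 1.43 in the first control array, and between -0.27 and -0.08 (median -0.13) in the low arrays. Its set difference of 1.62 is 3.07-fold. LDHA, which turns pyruvate into lactate, differed by 0.51 with no overlap. ALDOA, ALDOC, TPI1, PGAM1, ENO1, ENO2 and PDK1 differed by between -0.15 and 0.07. For genes with several probe sets these are means, and single probe sets ran from -0.96 to 0.55 for PDK1 and from -0.74 to 0.68 for ENO1. ENO2, the neuronal enolase, stood at 0.00, 0.00 and -0.37 in the first E2-BSA, estradiol and first control arrays and between -0.08 and 0.40 (median 0.23) in the low arrays. ALDOC, an aldolase, stood at 0.08, -0.17 and 0.02 in those high arrays and between -0.64 (E2-BSA with ICI) and 0.48 (ethanol) in the low ones, with a median of -0.02.

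The probe sets of a gene did not always agree on the set difference. Of the 24 genes with several probe sets, all probe sets had the same sign in 16 and not in 8, which were ALDOA, EGLN1, ENO1, HK2, LOX, PDK1, PFKFB4 and TPI1. VEGFA differed by 1.99 to 2.82 over its 4 probe sets, and PGK1 by 0.43 to 2.42 over 6. ENO1 ran from -0.74 to 0.68 and PDK1, the kinase that inhibits pyruvate dehydrogenase, from -0.96 to 0.55, so that their means near 0 average opposite signs. PGK1, PGAM1, TPI1, ENO1, ALDOA and LDHA have near-identical copies or relatives in the genome, and probe sets that read several transcripts can mix them.

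**Figure D2:**
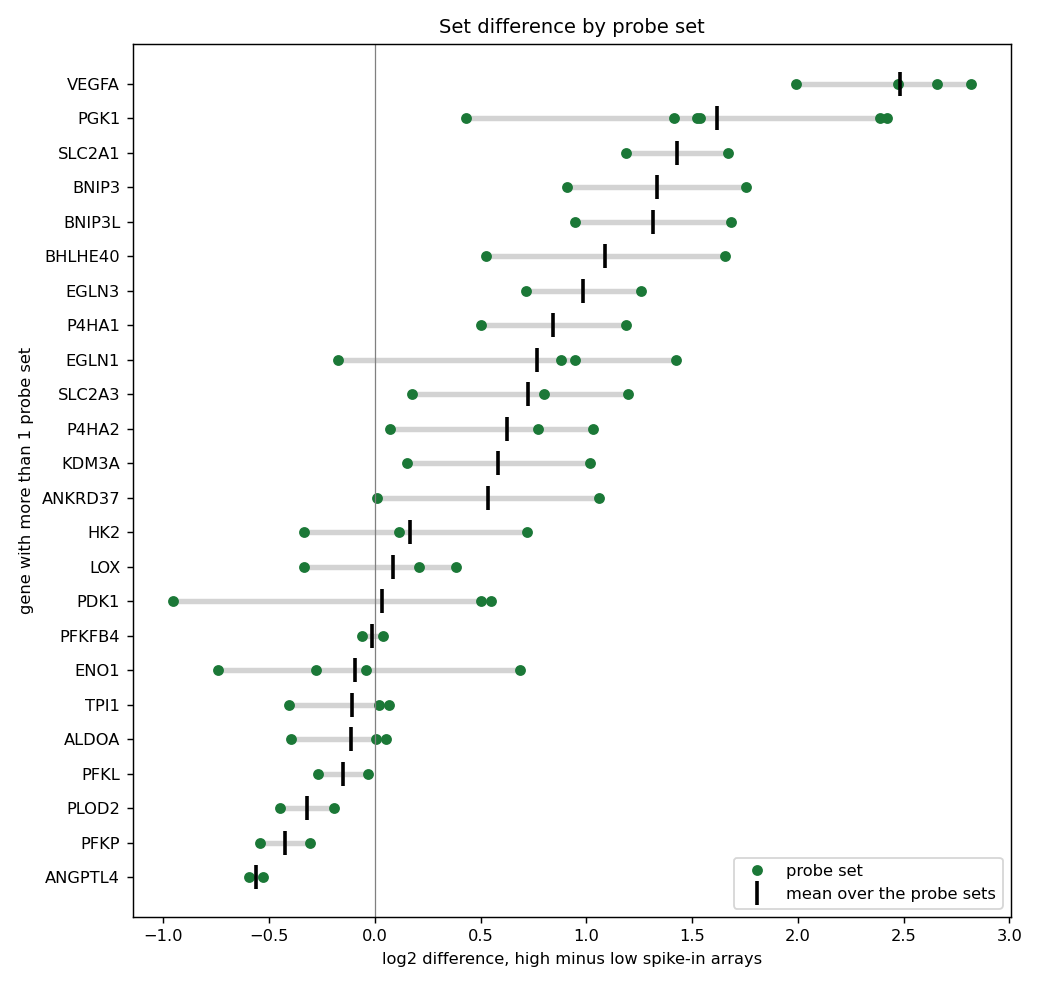
Set difference, high minus low spike-in arrays on the log2 scale (x axis), for each probe set (green points) of the 24 genes with more than 1 probe set (y axis), with the mean over a gene's probe sets as a black bar. VEGFA, PGK1 and SLC2A1 lie right of 0 with every probe set, and ENO1 and PDK1 have probe sets on both sides.

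Neighbouring pathways, taken from lists that do not contain the genes above, had median set differences on either side of the 0.17 of the 35 genes. The median was 0.28 over 24 other hypoxia-induced genes, 4 of them above 1, 0.15 over 17 regulators of the HIF pathway, 0.04 over 19 other genes of glycolysis and lactate transport, and 0.21 over 23 genes of pyruvate oxidation and the citric acid cycle. The median over 16 other stress genes that share inducers with DDIT4 was 0.65. Of 8 markers of leukocytes, fibroblasts and endothelium 7 were higher, with a range of -0.14 to 0.62 and a median of 0.30, and of 8 epithelial and luminal markers 5 were higher, from -0.69 to 0.79. Of 8 markers of MDA-MB-231 cells 7 were higher, from -0.26 to 0.48. The share of all genes that were higher was 60.3%. No level of any marker can be given, and their part in the set difference was not tested.

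The ethanol array, the vehicle of estradiol, was set against untreated cells, and it showed higher DDIT4 and ANKRD37. Limma with a term for the set called 2 of the 35 genes, both higher, at an adjusted p under 0.05 (0.086% of all genes, 17 genes, all higher). DDIT4 stood at 1.37 in the ethanol array and at -1.21 in control (2), while the other 6 low arrays lay between -0.95 and -0.52. The fitted difference was 2.34 ± 0.24 (SE), which is 5.05-fold, with an adjusted p of 0.0243. ANKRD37 stood at 0.89 in the ethanol array and at -0.31 in control (2), with the other 6 low arrays between -0.42 and -0.15, and differed by 1.29 ± 0.14, or 2.44-fold, with a limma adjusted p of 0.0279. In both genes the ethanol array lay above every other low array, and in both also above the 3 high arrays. The 2 probe sets of ANKRD37 differed, at 2.19 and 0.21 for ethanol minus control (2), and DDIT4 has a single probe set.

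Other genes of the list were higher in the ethanol array without passing the test. NDRG1 stood at 0.32 in the ethanol array and -0.73 in control (2), above the other low arrays, with a fitted difference of 1.0 ± 0.14 and an adjusted p of 0.0828. Over the alternatives run the NDRG1 difference ranged from 0.13, without the set term, to 1.83, after quantile normalization, with adjusted p between 0.0231 and 1.0. SLC2A3 differed by 0.68 ± 0.13 (adjusted p = 0.27), ADM by 0.73 ± 0.17 (0.409), BHLHE40 by 0.61 ± 0.13 (0.319) and VEGFA by 0.63 ± 0.22 (0.729), all by limma. The fitted median over the 35 genes was 0.26, against 0.02 over all genes, and 15 had an unadjusted p under 0.05, against 6.35% of all genes. By role, the median was 0.63 for the signals, 0.63 for growth and death, 0.54 for feedback and transcription, 0.17 for uptake and hexokinase, 0.17 for GPI and the phosphofructokinase step, 0.11 for lower glycolysis and 0.01 for collagen modification.

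Taken between the ethanol array and control (2) alone, 3 of 35 genes differed by more than 1 (0.258% of all genes) and 0 by less than -1 (0.0405% of all genes). They were DDIT4 at 2.58, ANKRD37 at 1.20 and NDRG1 at 1.05. The median was 0.31, against 0.05 over all genes, and 32 of 35 genes were higher (59.6% of all genes). Of the 4 genes of glucose uptake and glycolysis whose high arrays all stood above the low ones, SLC2A3 differed by 0.68, while PGK1 differed by 0.02, SLC2A1 by 0.04 and LDHA by 0.02. BNIP3L and EGLN1, also higher in the high arrays, differed by 0.02 and 0.00. Ethanol was the highest of the 8 low arrays for 15 of the 35 genes, against 7.67% of all genes, a count made after the data were seen. PFKFB3 at 0.89 and ANGPTL4 at 0.67 belong to these, though both were low in the high arrays. Control (2) was itself the lowest low array for 12 of the 35 genes, against 26.8% of all genes. Higher than in control (2) were also 29 of the 35 genes with BSA, 29 with G15 and 27 with ICI. The shares of all genes were 82.0%, 79.8% and 80.2%.

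The calls for DDIT4 and ANKRD37 rested on the set term and on the duplicates. Their spread also assumed that the effects of E2-BSA and each antagonist add. Without the set term the DDIT4 difference was 1.40 with an adjusted p of 0.977, and with the 8 low arrays alone it was 2.39 with an adjusted p of 0.0545, in a range of 0.0175 to 1.0 over all alternatives run. With the first control array, control (2) or E2-BSA (2) left out neither gene passed, and with the first E2-BSA array left out DDIT4 alone did.

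Beyond the list, the ethanol array stood out for immediate early genes, the first genes switched on by growth factor and stress signals. Their list, like the others here, was chosen with earlier results of these data known, so its calls are no independent support. Limma called 6 of 18 measured immediate early genes higher (0.086% of all genes) and 0 lower (0% of all genes), with a median of 0.78. EGR1 differed by 2.91 ± 0.17 (adjusted p = 0.00346), ARC by 2.51 ± 0.18 (0.00661), FOS by 3.04 ± 0.25 (0.0103) and FOSB by 1.80 ± 0.17 (0.0132). Of 16 other stress genes that share inducers with DDIT4, 1 was called, ATF3 at 1.38 ± 0.17 (adjusted p = 0.0442), which is also an immediate early gene, and the median was 0.32. The rest of the hypoxia and glucose pathways had no calls. With 0.086% of all genes called, lists of this size would seldom hold one, so this says little about them. For 24 other hypoxia-induced genes the median was 0.15, with the glycogen-targeting subunit PPP1R3C at 0.81 ± 0.17 and the heme oxygenase HMOX1 at 0.67 ± 0.15. For 17 HIF regulators it was 0.06, with HIF1A at -0.33 ± 0.13 and ELOC, a partner of VHL, at -0.49 ± 0.19. For 19 other genes of glycolysis and lactate it was 0.02, with the monocarboxylate transporter SLC16A7 at -0.59 ± 0.19 and the muscle mutase PGAM2 at 0.27 ± 0.15. For 23 genes of pyruvate oxidation and the citric acid cycle it was -0.01, with the succinyl-CoA ligase subunits SUCLG2 at -0.29 ± 0.13 and SUCLA2 at -0.32 ± 0.15. None of the 8 markers in each of 3 cell type lists passed, and their medians were 0.00 for MDA-MB-231 cells, 0.05 for epithelial and luminal cells and 0.11 for leukocytes and fibroblasts.

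**Figure D3:**
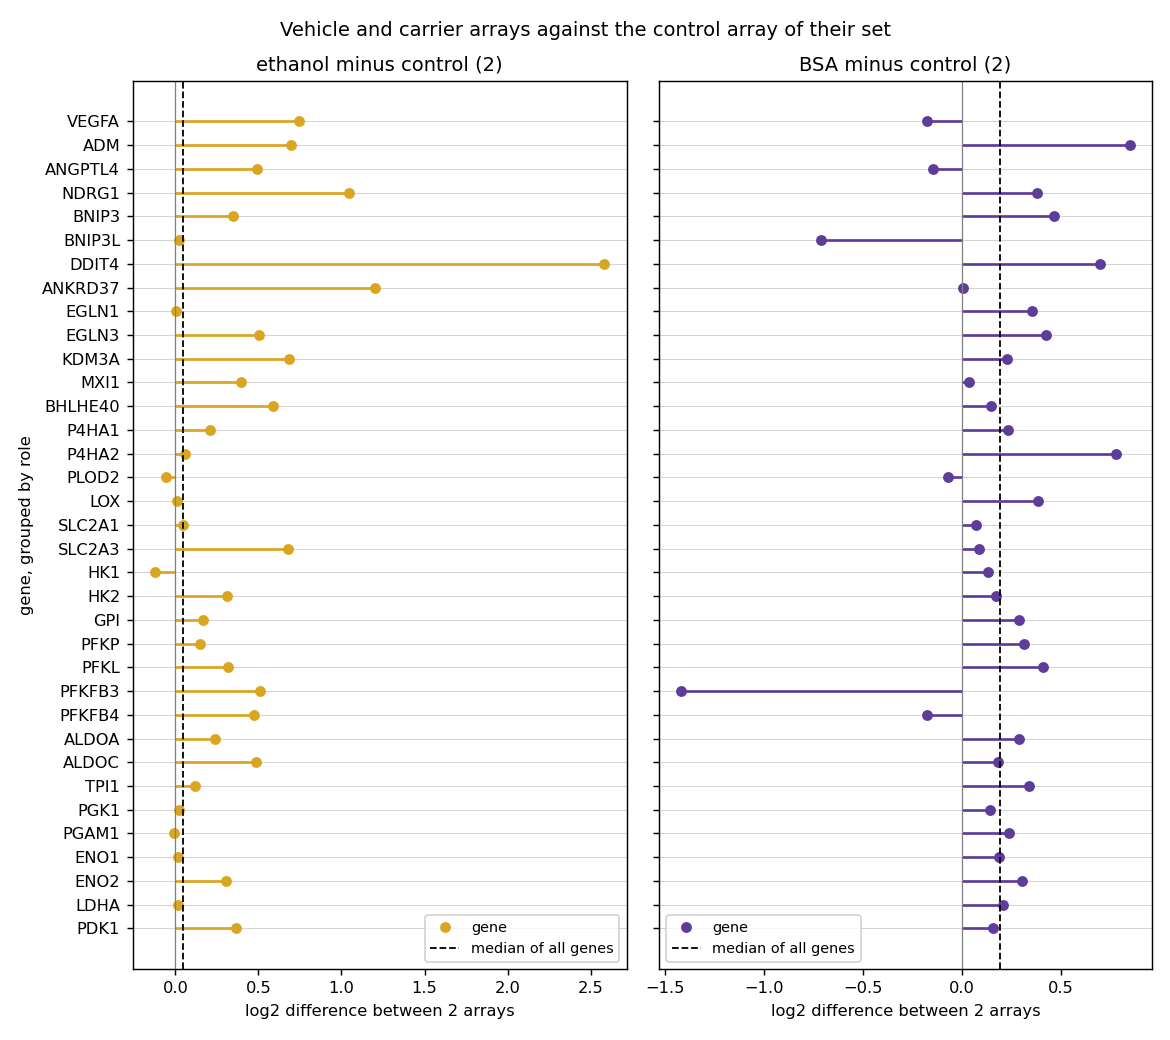
Log2 difference (x axis) of each of the 35 genes (y axis, grouped by role) for ethanol minus control (2), left, and BSA minus control (2), right, with the median of all 19775 genes as a dashed line and no replicate error, since each side is 1 array. DDIT4 at 2.58 stands out on the left and PFKFB3 at -1.42 on the right, and the panels have separate x scales.

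With the carrier BSA 1 gene of the list, PFKFB3, was lower than in untreated cells, and the median of the list lay near that of all genes. Limma called 1 of 35 genes lower (0.228% of all genes) and 0 higher (0.126% of all genes). PFKFB3 stood at -1.04 in the BSA array and 0.38 in control (2), and the other 6 low arrays lay between 0.11 and 0.89. The BSA array was thus below every other low array, and also below the 3 high arrays at -0.58 to -0.50. The fitted difference was -1.37 ± 0.16 with an adjusted p of 0.0137, on 1 probe set, and ranged over the alternatives from -1.52 to -0.94 with an adjusted p between 0.00658 and 0.877. PFKFB4, the other bifunctional enzyme of this step, stood at -0.30 in the BSA array, the lowest of the low arrays, and at -0.12 in control (2).

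The genes with the next smallest p-values for BSA did not pass. ADM stood at 0.88 in the BSA array and 0.03 in control (2), a fitted difference of 0.88 ± 0.17 (limma adjusted p = 0.15). P4HA2 stood at 0.39 and -0.39 in the same arrays and differed by 0.76 ± 0.17 (adjusted p = 0.19). BNIP3L stood at -0.98 in the BSA array and -0.26 in control (2) and differed by -0.80 ± 0.21 (adjusted p = 0.227), and its 2 probe sets gave -1.69 and 0.26 for BSA minus control (2). The fitted median over the list was 0.19, against 0.17 over all genes. Between the BSA array and control (2) alone, 1 gene, PFKFB3 at -1.42, lay below -1 (0.273% of all genes) and 0 above 1 (0.202% of all genes), with a median of 0.21 against 0.19 over all genes. BSA was the highest low array for 8 of 35 genes, against 31.2% of all genes. DDIT4 stood at -0.52 in the BSA array and -1.21 in control (2), a difference of 0.69, against 2.58 for ethanol minus the same control array.

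Free estradiol was compared with the first control array, its own set, since its vehicle array lies in the other set. No vehicle was therefore subtracted, and the fitted difference sets estradiol against untreated cells. Limma called 0 of 35 genes and 0% of all genes, with 1 of the 35 and 7.06% of all genes at an unadjusted p under 0.05. EGLN3 stood at 1.25 with estradiol and 0.42 in the first control array, with E2-BSA (first array) at 0.84, with a fitted difference of 0.70 ± 0.19 and an adjusted p of 0.479. The low arrays for EGLN3 ran from -0.46 to 0.04 with a median of -0.24. ANKRD37 stood at 0.47 with estradiol and 0.09 in the first control array, with E2-BSA (first array) at 0.25, and its fitted difference was 0.33 ± 0.14 (adjusted p = 0.707). MXI1 differed by 0.20 ± 0.13 (adjusted p = 0.903). Estradiol minus the first control array ran from -0.22 to 0.84 over the list with a median of 0.03, against -0.01 over all genes, and 0 genes passed 1 either way (0.101% of all genes above and 0.121% below). DDIT4, which was high in the ethanol array, differed by -0.03.

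None of the 35 genes passed the test for E2-BSA. Limma called 0 of 35 and 0% of all genes, and at an unadjusted p under 0.05 it had 0 of the 35 and 4.69% of all genes. The fitted differences ran from -0.22 to 0.19 with a median of 0.00, against -0.02 over all genes. ANGPTL4 differed by -0.22 ± 0.09, HK1 by -0.15 ± 0.08 and ADM by 0.19 ± 0.10, each with an adjusted p of 0.903. For ANGPTL4 the first E2-BSA array stood at -0.71 against -0.22 in the first control array, and E2-BSA (2) at 0.01 against 0.18 in control (2).

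E2-BSA can be set against its absence in 4 pairs of arrays, the 2 control pairs and the pairs with ICI and with G15. It was higher in all 4 for 3 of 35 genes (5.14% of all genes), which were ADM, SLC2A3 and PFKFB4. It was lower in all 4 for 7 of 35 (8.26% of all genes), which were BNIP3L, HK1, HK2, PGK1, MXI1, BHLHE40 and ANGPTL4. Most were small: BHLHE40 differed by -0.15 between the first arrays, -0.17 between the second, -0.07 with ICI and -0.11 with G15. BNIP3L differed by -0.03, -0.06, -0.13 and -0.69 in the same order, so that 1 pair carried it, and the E2-BSA with G15 array of that pair is the one with low 18S control probe sets. The median over the list was -0.02, 0.07, 0.00 and -0.10 in the 4 pairs, against 0.00, 0.03, -0.01 and -0.08 over all genes.

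No gene of the list passed for either antagonist. For ICI present against absent, limma called 0 of 35 and 0% of all genes, with 5 of the 35 and 16.3% of all genes at an unadjusted p under 0.05. LOX stood at 0.34 in E2-BSA with ICI and -0.14 in E2-BSA (2), and at 0.23 in ICI and -0.11 in control (2), a fitted difference of 0.40 ± 0.12 (adjusted p = 0.279). ALDOC was at -0.64 in E2-BSA with ICI and -0.04 in E2-BSA (2), and at -0.39 in ICI and -0.01 in control (2), a difference of -0.50 ± 0.16 (adjusted p = 0.28). NDRG1 was at -0.32 in E2-BSA with ICI and -0.64 in E2-BSA (2), and at -0.41 in ICI and -0.73 in control (2), a difference of 0.32 ± 0.11 (adjusted p = 0.28), which turned to -0.54 without the set term. The median over the list was 0.13, against 0.14 over all genes.

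For G15 present against absent, limma called 0 of 35 and 0% of all genes, with 3 of the 35 and 10.3% of all genes at an unadjusted p under 0.05. ANGPTL4 was at 0.43 in E2-BSA with G15 and 0.01 in E2-BSA (2), and at 0.63 in G15 and 0.18 in control (2), a difference of 0.43 ± 0.13 (adjusted p = 0.482). PFKFB4 differed by 0.30 ± 0.10 and ENO2 by 0.39 ± 0.14, both with the same adjusted p. ENO2 stood at 0.30 in E2-BSA with G15 and 0.01 in E2-BSA (2), and at 0.40 in G15 and -0.08 in control (2). The median over the list was 0.12, against 0.10 over all genes.

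In the remaining differences within the low arrays and in that between the first E2-BSA and control arrays, 0 of the 35 genes lay beyond 1 or -1. Of all genes, 0.131% lay above 1 and 0.379% below -1 for the first E2-BSA minus the first control array, and 0% either way for E2-BSA (2) minus control (2). For ICI minus control (2) the shares were 0% above and 0.137% below, and for G15 minus control (2) 0.0152% and 0.217%. For E2-BSA with ICI they were 0% and 0.00506% against ICI, and 0.0152% and 0.106% against E2-BSA (2). For E2-BSA with G15 they were 0.263% and 1.08% against G15, and 0.0101% and 0.546% against E2-BSA (2).

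Whether an antagonist altered the response to E2-BSA was tested as an interaction, in a fit with 1 residual degree of freedom. Limma called 0 of 35 genes for ICI (0% of all genes) and 0 for G15 (0.0101% of all genes, 2 genes, both lower). At an unadjusted p under 0.05 it had 1 of the 35 for ICI, against 2.95% of all genes, and 3 of the 35 for G15, against 10.3%. For ICI the smallest p belonged to PLOD2, at 0.49 ± 0.19, with EGLN3 at -0.47 ± 0.21 and KDM3A at -0.38 ± 0.21. For G15 it belonged to BNIP3L, at -0.65 ± 0.20 with an adjusted p of 0.31, with PLOD2 at -0.55 ± 0.19 and ALDOC at 0.46 ± 0.19. BNIP3L stood at -0.69 in E2-BSA with G15 and 0.00 in G15, against -0.32 in E2-BSA (2) and -0.26 in control (2). Its 2 probe sets stood at -1.10 and -0.27 in E2-BSA with G15, and at 0.04 and -0.03 in G15. PLOD2 stood at -0.60 in E2-BSA with G15 and 0.15 in G15, against -0.07 in E2-BSA (2) and 0.17 in control (2). Its 2 probe sets stood at -1.29 and 0.10 in E2-BSA with G15, and both at 0.15 in G15. The E2-BSA with G15 array is the one with 18S control probe sets at -1.65.

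**Figure D4:**
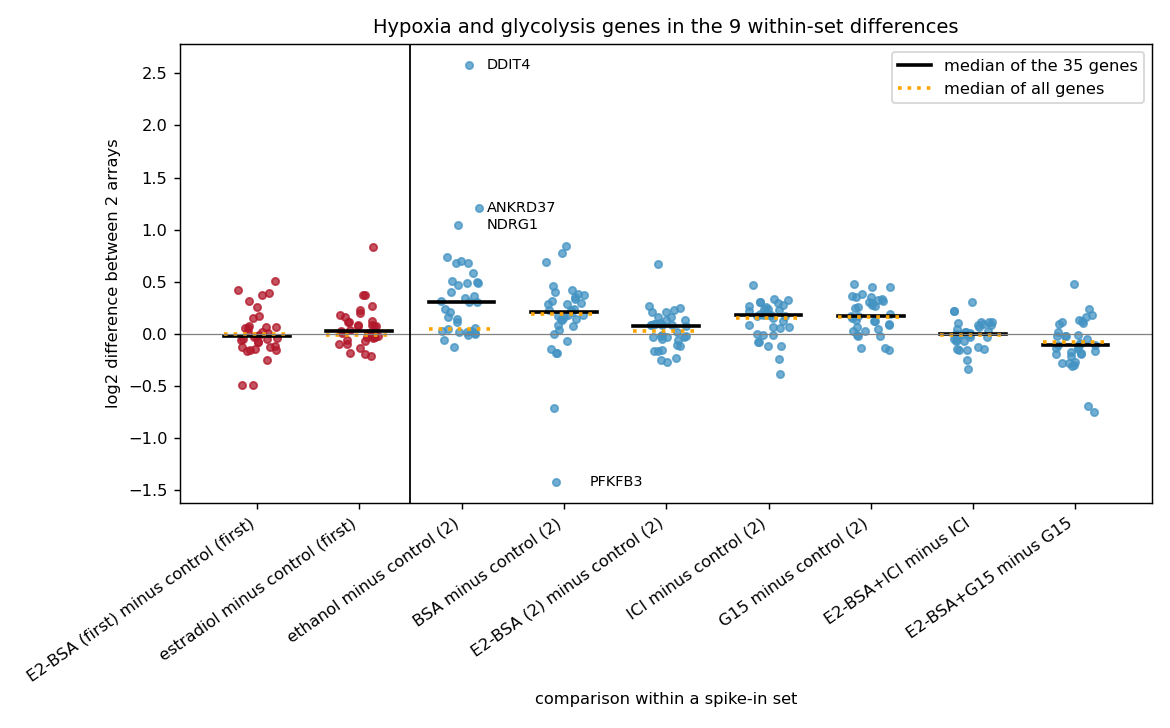
Log2 difference between 2 arrays (y axis) for the 35 genes (points) in each of 9 comparisons within a spike-in set (x axis), the high arrays in red and the low ones in blue, with the median of the 35 genes as a black bar and that of all genes as a dotted line. For ethanol minus control (2) the median of the 35 genes is 0.31 against 0.05 over all genes, and DDIT4, ANKRD37, NDRG1 and, for BSA, PFKFB3 lie beyond 1 or -1.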

How the data were processed

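The series matrix gives 1 value per probe set and array. The deposited values, analysed as log2, lie between -4.20 and 6.69, and 51.0% of 54675 probe sets have a pair of values mirrored around 0 (tolerance 1e-05), as centring each probe set on a median leaves. How the authors summarised and normalised the arrays, the log base and the direction are not given in the sources used here. Centred values allow no filter on dim probes, no background correction and no pseudocount. Per the labels' protocols, RNA was isolated on columns and labelled by the Affymetrix protocol.

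Of the probe sets, 41091 had 1 gene symbol in the platform annotation, 1801 several, 11721 none, and 62 were controls of the manufacturer. The RefSeq gene table held the ids of 41037, and 0 symbols were updated. Probe sets of a gene were averaged. No further normalization was applied, the array medians spanning 0.143 over probe sets and 0.173 over genes.

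The genes, the other gene lists, the design and the tests were chosen with earlier results of these data known. The fit used limma 3.58.1 in R 4.3.3 on all 11 arrays, with additive terms for each agent and for the set, which is the split at the largest gap (1.30, the next being 0.39) in the mean of 24 poly-A probe sets. It left 3 residual degrees of freedom, against 1 with a mean per group and the set. The spread thus came from the duplicates and from departures from additive effects of E2-BSA and each antagonist. Groups of 1 array were assumed to share that spread. The variance prior had a trend, and p-values were adjusted by Benjamini-Hochberg over 19775 genes at 0.05. Interactions used a mean per group and the set. The fit was checked on simulated data. Values of single arrays, or the range and median over the low arrays, are given for genes chosen by rule. These passed or differed by more than 1 within a set. Others had one of the 3 smallest p-values in a comparison, or one of the 3 highest or lowest set differences. From other lists up to 4 genes that passed for ethanol are named, or otherwise the 2 with the smallest p. Promoters are from RefSeq, GRCh38.p14, for up to 6 genes that passed or had the largest set difference. Alternatives were other scalings, probe set rules, fits and each duplicate left out.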

Additional observations from a re-analysis of the deposited data

How the results depend on the processing

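For ethanol, 2 genes of the list were called, against 3 after quantile normalization, 1 after centring each array on its median, 1 with only probe sets named _at without a suffix (19 of the 35 genes measured), 1 with a mean per group and the set as replicate block, 0 with no replicate block, 0 with a mean per group without the set, 0 with only the 8 low arrays, and 0 to 1 with 1 duplicate left out. All genes called for ethanol numbered 17, against 41 after quantile normalization, 10 with suffix-free probe sets, 0 with no replicate block, 0 with a mean per group without the set, and 0 to 15 with 1 duplicate left out (0 without control (2) or E2-BSA (2), 11 without the first control). For BSA, 1 gene was called, against 2 with the median over probe sets, where P4HA2 joined at 0.87 (adjusted p = 0.0442), 0 with no replicate block, 0 with a mean per group without the set, and 0 to 1 with 1 duplicate left out (0 without control (2) or E2-BSA (2)). All genes called for BSA numbered 70, against 5 with no replicate block, 0 with a mean per group without the set, and 4 to 58 with 1 duplicate left out. All genes called for ICI numbered 0, against 2 after quantile normalization, 3 with a mean per group and the set, and 6 without the E2-BSA with G15 array, an alternative chosen after seeing the data. For the G15 interaction 2 were called, against 65 after centring, 213 after quantile normalization, 103 with the median over probe sets, 15 with suffix-free probe sets and 0 with no replicate block. Calls of the list for estradiol, E2-BSA, ICI, G15 and both interactions were 0 under every alternative run.

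The list's median for ethanol minus control (2) was 0.31, and 0.11 with suffix-free probe sets. For BSA it was 0.21, and 0.033 after centring and 0.088 after quantile normalization. For ICI and for G15 it was 0.18, and after centring 0.043 for ICI and 0.038 for G15. For E2-BSA with G15 minus G15 it was -0.10, and 0.064 after quantile normalization. The alternatives for the set difference were added after seeing the data: its median was 0.17, and 0.42 with the median over probe sets. Genes below -1 numbered 1, and 0 after quantile normalization. With suffix-free probe sets, 3 genes lay above 1 (8 otherwise), 7 had the high arrays all above (13) and 3 all below (7), over 19 genes. NDRG1 with ICI turned from 0.32 to -0.54 with no replicate block and with a mean per group without the set; the set term carries that difference. For NDRG1 with ethanol, at 1.0, quantile normalization gave 1.83, past the threshold, and a mean per group without the set gave 0.13 (adjusted p = 1.0). The cause of the other changes was not tested.

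The duplicates' numbers coincide with the set, so the set term is also the replicate block. Control and E2-BSA arrays of the same number deviated together (r = 0.814 across 19775 genes, which are not independent). The 11 arrays, 7 of them alone in their group, limit the precision, and signal over background is unknown.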

Other observations

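Probe sets that read SLC2A3 together with its close relative SLC2A14, 2 in number, entered no gene value above. Their set differences were 1.39 and 0.74, and for ethanol minus control (2) they gave 0.48 and 1.24, against 0.72 and 0.68 for the mean of the SLC2A3 probe sets.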
